A study of Mus musculus with 32 samples.

Results

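The genes described here are 43 mouse genes of DNA replication and nucleotide synthesis, followed through cultured lymphoma cells and whole brains in which those cells were implanted. They were chosen by name and function, with earlier results of these data known, and are 43 of the 19938 genes that had a probe set of their own on the arrays. Where a gene had several probe sets, the one with the highest mean across the 32 arrays was read, and all 43 genes could be measured. The cells were those of BAL17, a B lymphoma line from BALB/c mice, and of its derivative BAL17VII, with 6 arrays of cultured cells for each. Whole brains of BALB/c wild-type mice were taken after 500000 cells had been implanted in the brain: 5 at day 21 with BAL17, 5 at day 21 with BAL17VII and 5 at day 28 with BAL17. A further 5 brains came from BALB/c mice injected with PBS and taken at day 28, and no PBS brains at day 21 were part of the data. The labels give neither the age of the mice nor whether separate cultures were used for the 6 arrays of each line. P-values between the lines therefore measure the spread between arrays, which may be technical.

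Eukaryotic DNA replication starts when the origin recognition complex, with Cdc6 and Cdt1, loads the MCM helicase on DNA. Cdc45, the GINS complex and Mcm10 then take part in turning the helicase on, primase and DNA polymerase alpha start each strand, and polymerases delta and epsilon extend it. Replication factor C loads the PCNA clamp, RPA covers single-stranded DNA, Fen1 and Lig1 finish the lagging strand, and chromatin assembly factor 1 places histones behind the fork. Ribonucleotide reductase (Rrm1 and Rrm2), thymidylate synthase, thymidine kinase and dUTPase supply or clean the nucleotide pool. Many of these genes are E2F targets whose RNA rises toward S phase, and most cells of the adult brain do not divide.

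Promoter sequence is shown first because E2F proteins act through sites near the start of many of these genes. RefSeq promoter windows of build GRCm38.p6, reaching from 250 bases before to 50 bases after a gene's start, were at hand for 36 of the 43 genes, in 42 windows. The windows were searched on both strands for the E2F letters TTTGGCGC, TTTCCCGC, TTTGCCGC and TTTCGCGC, of which the last can overlap the first on the other strand, and for CCAAT, the site of the factor NF-Y. An E2F match stood in 13 of the 42 windows (31.0%), against 2.26% of all 32851 windows of the same length. CCAAT stood in 25 windows (59.5%), against 37.4% of all, and the letters TTTGAA or TTTAAA of the CHR element, known from genes of G2 and mitosis, stood in 21.4% against 27.6%. These are descriptions of letters and not of bound sites. Below are the 170 bases before the start of 8 genes, 5′ to 3′ on the strand of the gene, with E2F matches (8 letters or more) and CCAAT matches (5 letters) in capitals. Mcm6, Mcm7, Cdc6, Orc1 and Pola1 hold an E2F match in this stretch, and Mcm3, Rrm2 and Rpa1, which are central to the results, do not.
Mcm6: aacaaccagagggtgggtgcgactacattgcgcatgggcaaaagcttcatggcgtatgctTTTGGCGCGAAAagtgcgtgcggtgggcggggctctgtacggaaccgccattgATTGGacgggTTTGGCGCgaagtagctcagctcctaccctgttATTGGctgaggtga
Mcm7: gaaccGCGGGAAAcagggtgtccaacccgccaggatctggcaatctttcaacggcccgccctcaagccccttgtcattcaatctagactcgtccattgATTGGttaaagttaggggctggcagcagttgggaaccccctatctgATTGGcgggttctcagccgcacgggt
Cdc6: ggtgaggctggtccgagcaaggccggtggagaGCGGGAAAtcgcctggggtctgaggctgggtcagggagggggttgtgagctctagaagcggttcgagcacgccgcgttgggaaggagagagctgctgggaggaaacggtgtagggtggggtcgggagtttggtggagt
Orc1: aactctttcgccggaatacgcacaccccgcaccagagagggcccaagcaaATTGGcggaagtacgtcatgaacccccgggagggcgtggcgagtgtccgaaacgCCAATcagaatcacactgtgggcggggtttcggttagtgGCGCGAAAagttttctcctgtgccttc
Pola1: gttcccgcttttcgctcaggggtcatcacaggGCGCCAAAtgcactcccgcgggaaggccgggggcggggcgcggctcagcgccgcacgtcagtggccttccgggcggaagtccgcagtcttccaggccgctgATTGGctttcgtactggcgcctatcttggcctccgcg
Mcm3: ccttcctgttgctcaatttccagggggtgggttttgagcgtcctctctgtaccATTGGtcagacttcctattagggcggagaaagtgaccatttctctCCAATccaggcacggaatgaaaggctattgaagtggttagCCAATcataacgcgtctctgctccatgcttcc
Rrm2: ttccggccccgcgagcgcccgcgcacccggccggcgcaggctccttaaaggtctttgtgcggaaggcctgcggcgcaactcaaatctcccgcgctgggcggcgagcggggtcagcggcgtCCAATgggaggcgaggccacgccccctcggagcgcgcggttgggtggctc
Rpa1: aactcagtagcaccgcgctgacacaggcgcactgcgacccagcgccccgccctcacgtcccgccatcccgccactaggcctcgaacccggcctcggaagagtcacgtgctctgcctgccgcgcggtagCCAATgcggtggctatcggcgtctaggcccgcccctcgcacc
These stretches lie at chr1:128359706-128359875 (Mcm6), chr5:138171884-138172053 (Mcm7), chrX:93632156-93632325 (Pola1), chr1:20820313-20820482 (Mcm3) and chr11:75348384-75348553 (Rpa1) on the minus strand. Those of Cdc6 (chr11:98907981-98908150), Orc1 (chr4:108579284-108579453) and Rrm2 (chr12:24708084-24708253) lie on the plus strand. All are upstream of the annotated start and outside the transcript that starts there. In Mcm6 the matches begin 110, 106 and 47 bases before the start, and the outer pair overlaps as a run of 12 letters. In Mcm3 both E2F matches lie after the start, at positions 20 and 39, and are not printed. Mcm7 also has a second RefSeq window without a match.

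Values are log2 intensities from Affymetrix whole-transcript arrays, on which 1 unit is a doubling, and a difference is called at a Benjamini-Hochberg adjusted p under 0.05 in limma over all 19938 genes. Levels were compared for 1 gene at a time between samples, never between genes. Array medians lay between 81.7 and 93.0 intensity units, and arrays of a group correlated at 0.974 to 0.989 over all probe sets. The line arrays and the brain arrays carry different leading numbers in their descriptions, and whether they were normalized together is not given in the sources used here, so a level in cells set beside a level in brains is a description. The tissue labels were borne out by their markers: the mean of 16 B lineage genes was 8.46 ± 0.04 (SD, n = 6) in BAL17 cells, and that of 12 neuron genes was 5.94 in BAL17 cells and 10.78 in PBS brains. BAL17VII brain 1 stood apart from the other 4 BAL17VII brains. Its mean over 19 mitosis genes was 5.68 and over B lineage genes 6.08, inside the PBS ranges of 5.60 to 5.73 and 5.96 to 6.16, where the other 4 reached 6.88 to 7.41 and 6.77 to 7.27. Counts over the 43 genes in comparisons with BAL17VII brains are given with and without it, as are several single differences.

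All 43 genes had their highest group mean in BAL17 cells, and 40 had their lowest in PBS brains. The mean over the 43 genes was 9.10 ± 0.03 (SD, n = 6) in BAL17 cells and 8.54 ± 0.08 (n = 6) in BAL17VII cells, and the arrays of the lines did not overlap. In brains it was 6.77 ± 0.05 with PBS, 7.53 ± 0.14 with BAL17 at day 21, 7.15 ± 0.19 with BAL17VII at day 21 and 7.41 ± 0.04 with BAL17 at day 28 (n = 5 each). The implanted brains lay at or above 6.84, the value of BAL17VII brain 1, and the PBS brains at or below 6.81. The distance between BAL17 cells and PBS brains differed widely among the genes, from 0.45 for Orc6, 0.88 for Rpa1, 0.92 for Gins3 and 1.02 for Gins4 to 4.36 for Rrm2, 4.47 for Pole and 4.97 for Mcm6. Of the 43 genes, 15 had a PBS mean below the array median, where residual background can shrink a measured difference. In whole brains, fewer cells of a type and less RNA per cell cannot be told apart.

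**Figure D1:**
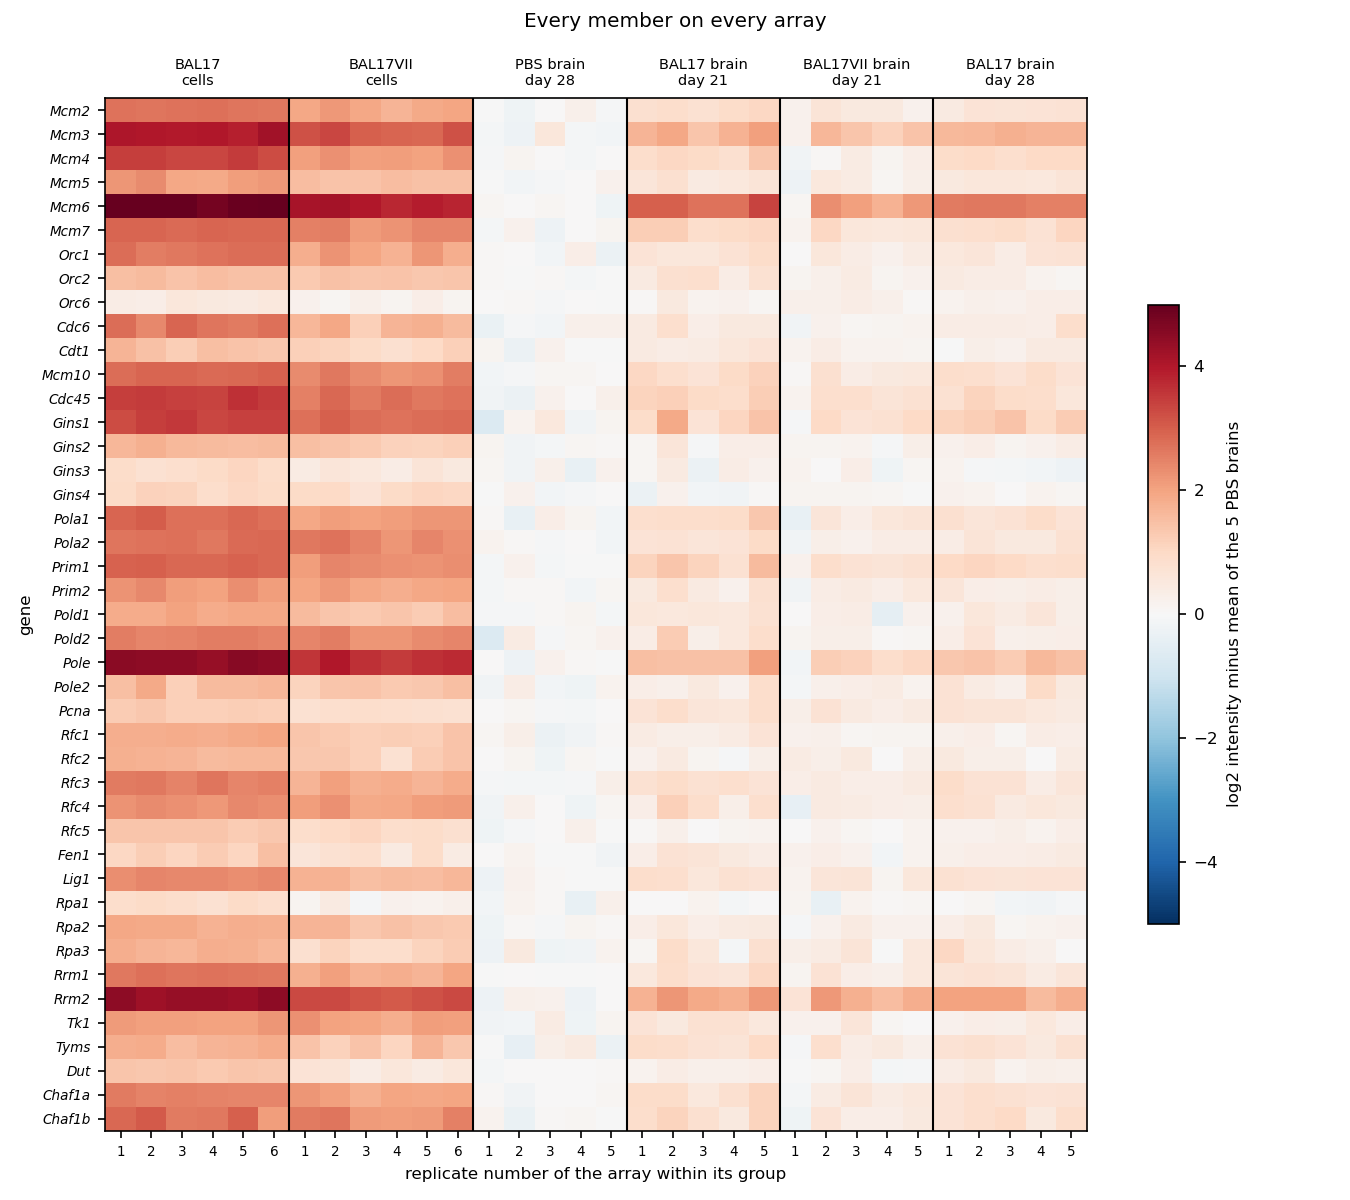
Colour gives the log2 intensity of each of the 43 genes (rows) on each of the 32 arrays (columns, by group and replicate number) minus the mean of the 5 PBS brains for that gene. Every gene is highest in BAL17 cells, and Mcm6, Pole, Rrm2 and Mcm3 stand out in the implanted brains other than BAL17VII brain 1. In that brain only Rrm2 of these genes lies above every PBS brain. The gap between BAL17 cells and PBS brains is smallest for Orc6 (0.45).

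**Figure D2:**
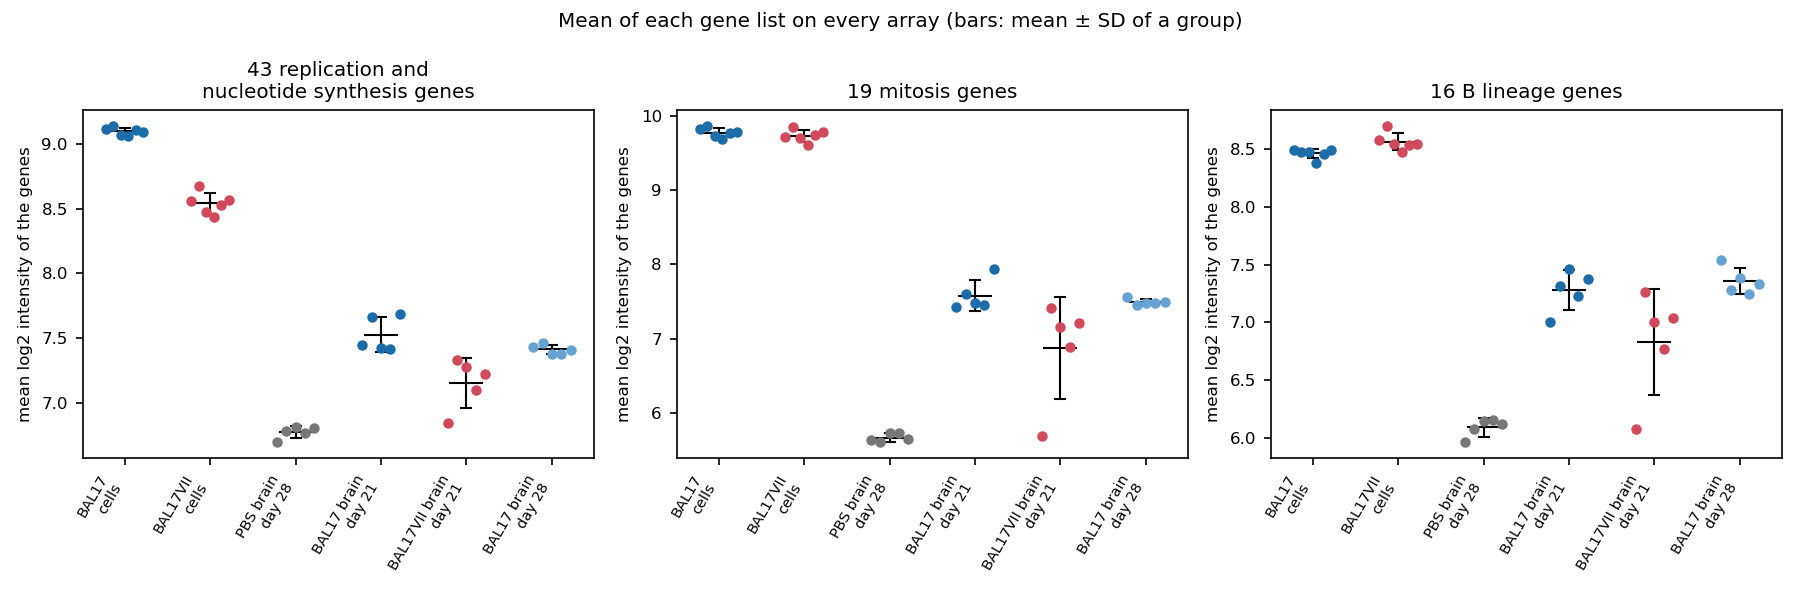
Each point is the mean log2 intensity of a gene list on 1 array, with the mean ± SD of the group as a cross and bar, for the 43 replication genes, 19 mitosis genes and 16 B lineage genes. BAL17VII cells lie below BAL17 cells for the replication genes (8.54 against 9.10), while the mitosis means are 9.73 and 9.77, and BAL17VII brain 1 lies within or just above the PBS brains in all panels.

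How the derived line differs from its parent was asked first in culture. BAL17VII cells had lower RNA levels of most replication genes: 35 of the 43 were called lower, against 6.93% of all genes, and none of the 43 differences was above 0. The median difference was -0.51 over the 43 genes and -0.014 over all genes. For 33 genes every BAL17VII array lay below every BAL17 array, against 2138 of all 19938 genes without overlap in either direction. The largest falls of single genes were those of Mcm4 of the MCM helicase, Rrm2 of ribonucleotide reductase and Cdc6 of origin licensing. The median over the 5 genes of origin recognition and licensing was -0.41, smaller than that over all 43.

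All 6 MCM helicase genes were lower. Mcm4, a helicase subunit, ran from 9.91 over a median of 10.04 to 10.14 in BAL17 cells and from 8.66 over 8.71 to 8.94 in BAL17VII cells. The lowest BAL17 array lay almost a whole unit above the highest BAL17VII array. The difference was -1.26 ± 0.07 (SE, limma adjusted p = 9.89e-09), a 2.40-fold fall. Mcm6 (-0.999 ± 0.08), Mcm3 (-0.94 ± 0.09), Mcm2 (-0.75 ± 0.08) and Mcm5 (-0.64 ± 0.08) followed, and Mcm7 had the smallest difference of the ring (-0.49 ± 0.08). Of the 5 genes of origin recognition and licensing, 4 were lower. Cdc6, the ATPase that helps load MCM, ranged from 7.96 over a median of 8.25 to 8.43 in BAL17 cells and from 6.72 over 7.23 to 7.47 in BAL17VII cells, a difference of -1.05 ± 0.11 (limma adjusted p = 1.01e-05). Orc1, the subunit whose level is known to vary with the cell cycle, differed by -0.75 ± 0.09, Cdt1 by -0.41 ± 0.09 and Orc6 by -0.26 ± 0.06. Orc2, a core subunit, was not called: its arrays ran from 9.95 over 10.01 to 10.11 and from 9.82 over 9.92 to 9.98, and overlapped.

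Of the 6 genes of helicase activation 5 were lower, Cdc45 by most (-0.80 ± 0.07), then Gins1 (-0.60 ± 0.07), Mcm10 (-0.49 ± 0.08), Gins3 (-0.41 ± 0.07) and Gins2 (-0.35 ± 0.08). Gins4 was the 1 GINS subunit that was not called. It ran from 9.85 over a median of 9.96 to 10.09 in BAL17 cells and from 9.65 over 9.93 to 10.02 in BAL17VII cells, so the lines overlapped almost wholly. Among polymerases the catalytic subunits were lower, with Pole at -0.79 ± 0.08, Pola1 at -0.75 ± 0.07, the primase subunit Prim1 at -0.63 ± 0.07 and Pold1 at -0.49 ± 0.07. Their partner subunits differed less: Pola2 by -0.29 ± 0.09 (called), and Prim2 (-0.24 ± 0.08), Pole2 (-0.21 ± 0.10) and Pold2 (-0.13 ± 0.07) did not pass the test. Pold2 ran from 9.99 over 10.06 to 10.11 in BAL17 cells and from 9.74 over 9.96 to 10.12 in BAL17VII cells. Prim2 ran from 8.56 over 8.72 to 8.95 and from 8.35 over 8.50 to 8.72, and Pole2 from 6.38 over 6.79 to 7.08 and from 6.31 over 6.56 to 6.71. In each of these 3 genes the arrays of the lines overlapped. Whether catalytic and partner subunits differed from each other was not tested.

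Pcna, the sliding clamp, ran from 11.80 over a median of 11.83 to 11.98 in BAL17 cells and from 11.37 over 11.44 to 11.49 in BAL17VII cells. The lines did not overlap, and the difference was -0.42 ± 0.06 (limma adjusted p = 0.000103). A second Pcna probe set gave group means of 11.85 and 11.42. Of the 5 clamp loader genes 4 were lower, from Rfc3 (-0.73 ± 0.07) to Rfc5 (-0.43 ± 0.06). Rfc4 did not pass (-0.22 ± 0.08), with 8.99 over 9.14 to 9.27 in BAL17 cells and 8.74 over 8.93 to 9.15 in BAL17VII cells. Both Okazaki fragment genes, Lig1 (-0.75 ± 0.06) and Fen1 (-0.53 ± 0.10), and all 3 RPA genes, Rpa3 (-0.73 ± 0.08), Rpa1 (-0.69 ± 0.08) and Rpa2 (-0.37 ± 0.08), were lower. Of chromatin assembly factor 1, Chaf1a was lower (-0.51 ± 0.07) and Chaf1b was not called (-0.35 ± 0.16), with BAL17 arrays spread from 7.69 over 8.33 to 8.65 and BAL17VII arrays from 7.69 over 7.92 to 8.26.

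In nucleotide synthesis both subunits of ribonucleotide reductase were lower. Rrm2, the small subunit that limits the enzyme outside S phase, ran from 9.61 over a median of 9.72 to 9.84 in BAL17 cells and from 8.44 over 8.61 to 8.69 in BAL17VII cells. That is a difference of -1.14 ± 0.07 (limma adjusted p = 1.47e-08) with no overlap. Rrm1 differed by -0.85 ± 0.07, Dut, which removes dUTP, by -0.81 ± 0.07, and Tyms, which makes thymidylate, by -0.40 ± 0.10. Tk1, the salvage kinase, differed by -0.04 ± 0.07, with 9.22 over 9.24 to 9.41 in BAL17 cells and 9.04 over 9.24 to 9.47 in BAL17VII cells. Its second probe set had means of 8.16 ± 0.23 and 8.23 ± 0.30 (SD, n = 6 each). Tk1 therefore showed no detectable difference on either probe set, while the other 4 genes of the pool did.

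**Figure D3:**
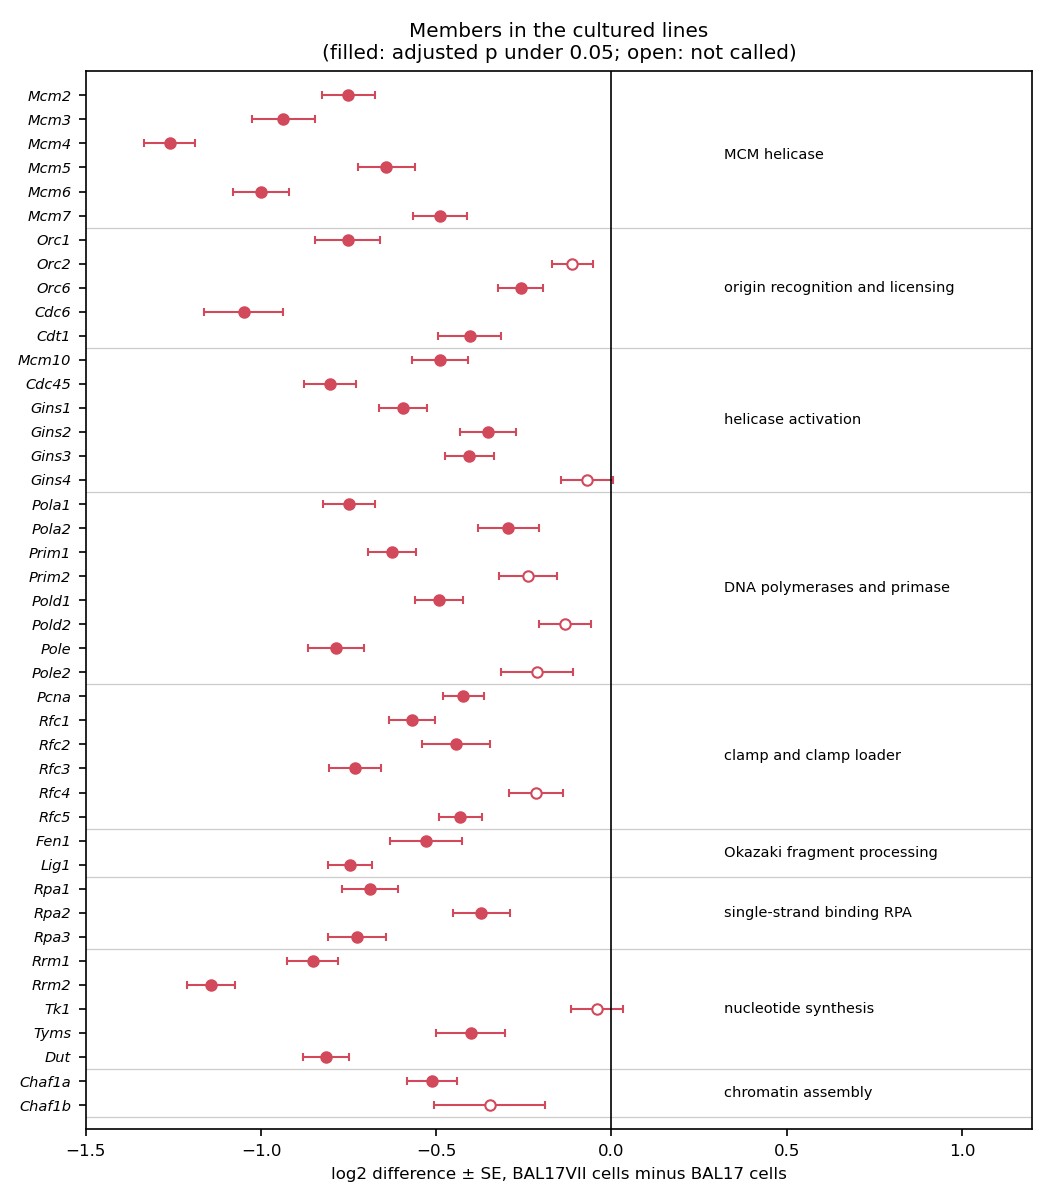
Points are log2 differences between BAL17VII and BAL17 cells with limma's SE for the 43 genes, ordered by role, filled where the adjusted p was under 0.05. All 43 lie at or left of 0, from -1.26 for Mcm4 to -0.04 for Tk1, and the 8 open points are Orc2, Gins4, Prim2, Pold2, Pole2, Rfc4, Tk1 and Chaf1b.

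The genes with an E2F match and those without one both fell. Of the 13 genes with a match in their promoter window 12 were called lower in BAL17VII cells, with a median difference of -0.73 and a range from -1.05 to -0.21. Of the 23 with a window but no match 18 were called lower, with a median of -0.49 and a range from -1.14 to -0.04. Rrm2, the second largest fall, has no match in its window, and Pole2, which was not called, has 1. In BAL17 brains at day 21 against PBS the medians were 0.68 with a match and 0.70 without.

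Most other replication factors were lower in BAL17VII cells too, while most other nucleotide synthesis, E2F and RB, and mitosis genes were not called. Of 36 other replication factors 24 were lower and 1 was higher in BAL17VII cells. The 3 with the smallest adjusted p were Dscc1 of an alternative clamp loader (-1.10 ± 0.07), Tipin of the fork protection complex (-0.92 ± 0.07) and Uhrf1, which helps copy DNA methylation (-1.01 ± 0.08). Gmnn, the inhibitor of Cdt1, differed by -0.63 ± 0.11 and Top2a, a topoisomerase, by -0.39 ± 0.06. Of 26 other nucleotide synthesis genes 5 were lower, 2 higher and 19 not called, with Dtymk (-0.49 ± 0.06), Nme1 (-0.62 ± 0.08) and Pfas (-0.47 ± 0.09) lower. Of 15 E2F and RB family genes 6 were lower: E2f8 (-0.62 ± 0.08), E2f7 (-0.53 ± 0.07) and Tfdp1 (-0.39 ± 0.06) had the smallest adjusted p, and E2f1 did not pass (-0.32 ± 0.11, limma adjusted p = 0.0637). Of 19 mitosis genes 4 were lower and 4 higher, with a list median of -0.02, and Mki67, the proliferation marker, differed by -0.13 ± 0.08 (limma adjusted p = 0.392). Of 16 B lineage genes 5 were higher and 2 lower, and Cd79a, of the B cell receptor, differed by -0.05 ± 0.09. Of 12 monocyte and macrophage genes 5 were higher and 0 lower by limma, against 8.48% of all genes called higher, and their mean was 6.47 ± 0.05 (SD, n = 6) in BAL17VII cells and 5.87 ± 0.05 in BAL17 cells. Their part in the differences of the replication genes was not tested.

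The comparison of implanted with PBS brains asks what a growing lymphoma adds to brain tissue. In BAL17 brains at day 21, 35 of the 43 genes were higher than in PBS brains, against 11.0% of all genes, and at day 28 it was 34, against 6.56%. The median differences were 0.68 and 0.56, with -0.0044 and -0.019 over all genes, and 31 genes were called at both days. These comparisons share the 5 PBS brains. Markers of lymphoma and of dividing cells moved the same way: 13 of 16 B lineage genes and 19 of 19 mitosis genes were higher at day 21, and 10 of 12 neuron genes and 8 of 9 microglia genes were lower, against 18.8% of all genes called lower. At day 28, 12 B lineage and 19 mitosis genes were higher and 8 neuron and 2 microglia genes lower, against 11.5% of all genes called lower. Of 9 T cell genes 3 were higher at day 21, and of 12 monocyte and macrophage genes 4 were higher and 2 lower. At day 28, 1 T cell gene was higher and 1 lower, and 4 monocyte and macrophage genes were higher. The part of changed cell proportions in the rise was not tested.

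Mcm6, a helicase subunit, showed the largest difference in each brain comparison with PBS. It read 5.94, 5.84, 5.92, 5.86 and 5.61 in PBS brains and 8.84, 8.83, 8.54, 8.56 and 9.20 in BAL17 brains at day 21. It read 8.44, 8.47, 8.47, 8.34 and 8.37 in BAL17 brains at day 28. The lowest implanted brain of these groups lay more than 2 units above the highest PBS brain, with differences of 2.96 ± 0.26 (limma adjusted p = 4.48e-08, 7.77-fold) and 2.58 ± 0.26. Mcm3 read 5.69, 5.51, 6.34, 5.66 and 5.65 in PBS brains and 7.47, 7.70, 7.15, 7.50 and 7.82 in BAL17 brains at day 21, where it was higher by 1.76 ± 0.19. At day 28 it read 7.38, 7.43, 7.53, 7.46 and 7.46 (1.68 ± 0.19), and no BAL17 brain of either day reached down to the PBS brains. The other MCM genes were higher by 0.60 to 1.06 at day 21, and all 6 were called at both days.

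Rrm2 was the second largest rise. It read 5.10, 5.63, 5.60, 5.13 and 5.37 in PBS brains and 7.11, 7.59, 7.27, 7.14 and 7.53 in BAL17 brains at day 21, a difference of 1.96 ± 0.19 (limma adjusted p = 1.04e-07), with no overlap. At day 28 it read 7.38, 7.37, 7.37, 6.97 and 7.20 (1.89 ± 0.19), again above every PBS brain. All 5 nucleotide synthesis genes were called at day 21, with Tyms at 0.83 ± 0.15, Rrm1 at 0.75 ± 0.10, Tk1 at 0.63 ± 0.12 and Dut at 0.27 ± 0.08, and all but Tk1 at day 28. The Tk1 probe sets differed there: the one used gave 0.33 ± 0.12, while the second had means of 6.88 ± 0.15 (SD, n = 5) in BAL17 brains at day 28 and 6.18 ± 0.22 in PBS brains. Pole, the catalytic subunit of polymerase epsilon, read 4.84, 4.58, 5.02, 4.86 and 4.79 in PBS brains and 6.32, 6.30, 6.30, 6.28 and 6.88 in BAL17 brains at day 21 (1.59 ± 0.18). All 8 polymerase and primase genes were called at day 21, and 7 at day 28, when Pold2 missed the threshold. Pcna read 10.63, 10.71, 10.58, 10.52 and 10.66 in PBS brains and 11.31, 11.51, 11.21, 11.18 and 11.50 in BAL17 brains at day 21. No BAL17 brain overlapped the PBS brains, and the difference was 0.72 ± 0.09 (limma adjusted p = 2.72e-06) at day 21 and 0.59 ± 0.09 at day 28.

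The 8 genes that were not called at day 21 came from 4 roles. Of the 6 genes of helicase activation, 3 GINS subunits did not pass. Gins4 read 8.92, 9.16, 8.80, 8.90 and 8.98 with PBS and 8.66, 9.18, 8.82, 8.79 and 9.03 with BAL17, the 1 negative difference among the 43 (-0.06 ± 0.09). Gins3 read 6.71, 6.43, 6.86, 6.22 and 6.80 with PBS and 6.69, 7.06, 6.32, 6.96 and 6.80 with BAL17 (0.16 ± 0.14), and Gins2 7.48, 7.16, 7.23, 7.43 and 7.40 against 7.44, 7.95, 7.30, 7.67 and 7.67 (0.27 ± 0.10). Gins1, the fourth subunit of the same complex, rose by 1.19 ± 0.22. The groups overlapped in the 3 genes that did not pass and did not overlap in Gins1, and whether the subunits differed from each other was not tested. Rpa1 read 7.42, 7.75, 7.62, 7.19 and 7.81 with PBS and 7.59, 7.60, 7.72, 7.46 and 7.59 with BAL17 (0.03 ± 0.11). It is the largest RPA subunit, and its groups overlapped. Rpa3 read 6.78, 7.51, 6.82, 6.86 and 7.20 against 7.15, 7.93, 7.58, 6.93 and 7.83 (0.45 ± 0.19), and only Rpa2 of the 3 was called, at day 21 (0.44 ± 0.10) and not at day 28. Of the clamp loader, Rfc2 read 7.52, 7.64, 7.28, 7.60 and 7.47 with PBS and 7.71, 7.95, 7.65, 7.45 and 7.78 with BAL17 (0.21 ± 0.11). Rfc5 read 8.01, 8.13, 8.23, 8.46 and 8.19 against 8.28, 8.47, 8.21, 8.34 and 8.39 (0.13 ± 0.08). Orc6 read 8.63, 8.66, 8.51, 8.59 and 8.56 against 8.64, 9.06, 8.76, 8.80 and 8.70 (0.20 ± 0.08). All of these overlapped with PBS. Rfc2, Rfc5 and Orc6 were called at day 28 (0.30 ± 0.11, 0.25 ± 0.08 and 0.26 ± 0.08). Cdt1, Rpa2, Pold2 and, on the probe set used, Tk1 were called at day 21 and not at day 28. The second Tk1 probe set had means of 6.88 in BAL17 brains at day 28 and 6.18 in PBS brains. The levels in BAL17 cells and PBS brains lay closest for Orc6, Rpa1, Gins3 and Gins4. Of these genes, Orc6 was called at day 28 and the others in no implanted group. Fen1 and Pcna, the next closest, were called in BAL17 brains at both days. Gins2 and Rpa3, whose levels lay farther apart, were called in no implanted group. Whether the distance between cells and PBS brains bears on the calls was not tested.

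In BAL17VII brains at day 21, 13 of the 43 genes were higher than with PBS, against 2.05% of all genes, and all 43 differences were above 0 (median 0.30, and -0.0066 over all genes). The 13 were Mcm2, Mcm3, Mcm6, Mcm7, Mcm10, Cdc45, Prim1, Pole, Pcna, Rfc3, Lig1, Rrm1 and Rrm2, all of them also called in BAL17 brains at both days. Without BAL17VII brain 1 all 13 were still called, and Gins1, Pola1, Prim2 and Chaf1a joined them, 17 in all, against 2.77% of all genes. When the fit used the BAL17VII and PBS arrays alone, 6 were called. Mcm6 read 5.92, 8.14, 7.89, 7.58 and 8.01, so brain 1 lay inside the PBS range and the other 4 lay above every PBS brain. The difference was 1.67 ± 0.26 (limma adjusted p = 0.000674), and 2.07 ± 0.12 without brain 1. Rrm2 read 6.04, 7.54, 7.16, 6.91 and 7.20, and all 5 lay above the PBS brains (1.60 ± 0.19, limma adjusted p = 0.000207, and 1.84 ± 0.14 without brain 1). Mcm3 read 5.98, 7.45, 7.14, 6.94 and 7.19 (1.17 ± 0.19, and 1.41 ± 0.14 without brain 1), with brain 1 among the PBS values. Pcna read 10.90, 11.34, 11.07, 10.95 and 11.07 (0.45 ± 0.09, and 0.49 ± 0.09 without brain 1), above every PBS brain. Over the 43 genes, brain 1 lay within the PBS range in 29, above it in 9 and below it in 5, where the other implanted brains lay above it in 25 to 41. Of the mitosis genes 16 of 19 and of the B lineage genes 9 of 16 were higher in this group, and 18 and 11 without brain 1. No neuron, microglia, myelin or astrocyte gene was called by limma with all arrays, where 0.647% of all genes were called lower. Without brain 1, 1 neuron gene was lower. Of 7 endothelium genes 1 was lower (2 without brain 1), and of 12 monocyte and macrophage genes 2 were higher (3 without brain 1).

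**Figure D4:**
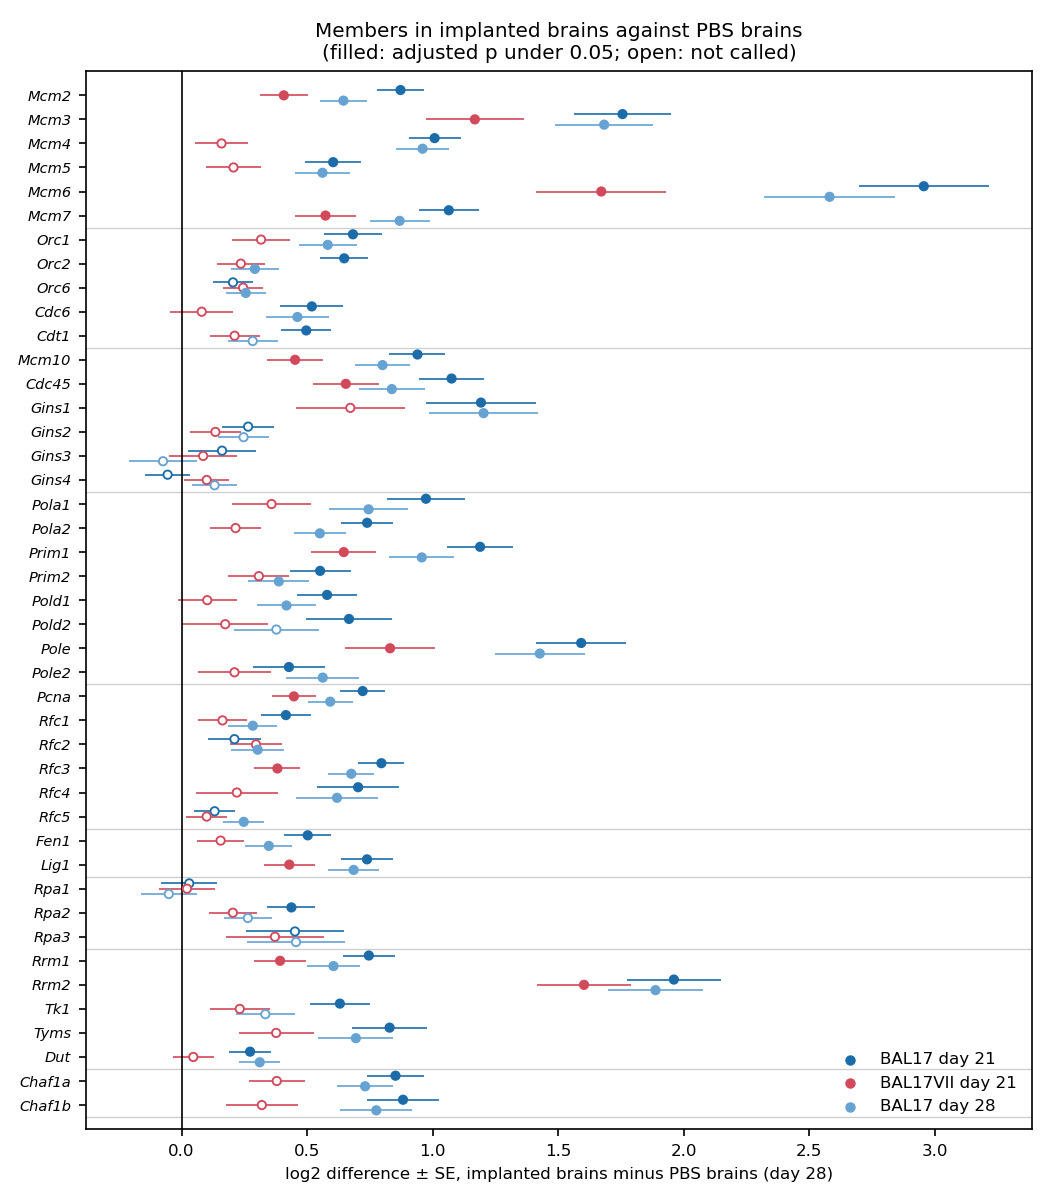
Points are log2 differences of 3 implanted groups from the 5 PBS brains with limma's SE, for the 43 genes in order of role, filled where the adjusted p was under 0.05. Mcm6 (2.96 in BAL17 brains at day 21), Rrm2 (1.96), Mcm3 (1.76) and Pole (1.59) lie farthest right, Rpa1, Gins3 and Gins4 stay near 0, and the BAL17VII points mostly lie left of the BAL17 points.

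The direct comparison of the implanted lines at day 21 asks whether the difference between cultured lines is also seen in brains. Of the 43 genes 25 were lower in BAL17VII brains than in BAL17 brains, against 4.55% of all genes, and 40 differences were below 0 (median -0.40, and -0.0028 over all genes). Of the 25 genes 22 were also lower in BAL17VII cells, a share near that of all 43 genes, of which 35 were lower there. Orc2, Tk1 and Chaf1b were called in brains only. All 6 MCM genes and both Okazaki fragment and chromatin assembly genes were called, and no RPA gene was. Mcm6 had the largest difference (-1.29 ± 0.26, limma adjusted p = 0.00251), which was -0.89 ± 0.12 without BAL17VII brain 1. Mcm4 read 7.52, 7.66, 7.62, 7.46 and 8.01 in BAL17 brains and 6.47, 6.72, 7.05, 6.79 and 6.99 in BAL17VII brains. The groups did not overlap, and the difference was -0.85 ± 0.10 (limma adjusted p = 2.93e-05), with -0.77 ± 0.10 without brain 1. Pole read 6.32, 6.30, 6.30, 6.28 and 6.88 against 4.69, 6.04, 5.97, 5.69 and 5.87 (-0.76 ± 0.18, and -0.52 ± 0.12 without brain 1). The 3 genes with a difference above 0 were not called: Gins4 (0.16 ± 0.09), Rfc2 (0.09 ± 0.11) and Orc6 (0.04 ± 0.08). Orc6 read 8.64, 9.06, 8.76, 8.80 and 8.70 in BAL17 brains and 8.86, 8.85, 8.95, 8.85 and 8.66 in BAL17VII brains, and the groups overlapped.

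Fewer genes were called without BAL17VII brain 1: 15 of the 25, with a median difference of -0.33. Mcm3, Mcm5, Orc1, Cdc6, Cdc45, Pcna, Lig1, Rrm1, Tk1 and Tyms were the 10 that no longer passed. In the fit of these groups alone 16 were called. Markers of dividing cells and of lymphoma moved alongside in part. In BAL17VII brains 8 of 19 mitosis genes and 5 of 16 B lineage genes were lower, and none of either list was higher. Of other lists, 7 of 12 neuron and 7 of 9 microglia genes were higher, against 4.55% of all genes lower and 8.94% higher. Without brain 1, 6 mitosis genes were lower, 4 B lineage genes lower and 1 higher, and 6 neuron and 6 microglia genes higher, against 2.66% and 4.77% of all genes. The median of the mitosis list moved from -0.70 to -0.38. The mean over B lineage genes ran from 7.01 to 7.46 in BAL17 brains and from 6.08 to 7.27 in BAL17VII brains. Their part in the lower replication genes was not tested.

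Between day 21 and day 28 few genes of any kind were called in BAL17 brains: 0 of the 43 by limma, against 0.612% of all genes. Of the 43, 5 had an unadjusted p under 0.05. The median difference was -0.13, with 35 of 43 below 0. Values of 2 of the 43, Mcm2 and Mcm6, did not overlap between the days, a share near that of all genes (736 of 19938). Orc2 had the lowest adjusted p: it read 8.96, 9.32, 9.37, 8.89 and 9.30 at day 21 and 8.96, 8.90, 8.87, 8.70 and 8.63 at day 28 (-0.36 ± 0.10, limma adjusted p = 0.0928). The brains of the later day lay low within or below the earlier range. Mcm6 had the largest difference (-0.38 ± 0.26), followed by Orc2 and by Tk1 (-0.30 ± 0.12), which read 7.87, 7.67, 7.95, 7.96 and 7.71 at day 21 and 7.41, 7.54, 7.49, 7.71 and 7.54 at day 28. The second Tk1 probe set had means of 6.84 ± 0.18 and 6.88 ± 0.15 (SD, n = 5 each), with no fall. The largest differences above 0 were those of Gins4 (0.19 ± 0.09), Pole2 (0.13 ± 0.14) and Rfc5 (0.12 ± 0.08). Under quantile normalization 1 gene, Orc2, was called lower (-0.39 ± 0.08).

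The measured line difference was smaller in whole brains than in cells for 11 of the genes. The difference of differences, tested over all 32 arrays, takes the line difference in brains at day 21 minus that in cells. The arrays of cells and brains differ in more than tissue. Brain arrays also hold host RNA, so the test cannot separate a smaller difference between the lymphoma cells from the share of host RNA. The difference of differences was above 0 and called for these 11 of the 43 genes, against 8.43% of all genes. Of the 11, Orc6, Rfc2, Rfc5, Rpa1 and Rpa3 were not called higher than PBS in BAL17 brains at day 21. By limma 0 of the 43 were called below 0, with 2 there at an unadjusted p under 0.05. Under quantile normalization 9 were called above 0 and 2 below, Orc2 (-0.42 ± 0.10) and Tk1 (-0.47 ± 0.16). Dut had the smallest adjusted p: it differed between lines by -0.81 ± 0.07 in cells and by -0.23 ± 0.08 in brains, and the difference of differences was 0.59 ± 0.10 (limma adjusted p = 0.000114). Rpa1 followed, with -0.69 ± 0.08 in cells and -0.01 ± 0.11 in brains. It read 7.59, 7.60, 7.72, 7.46 and 7.59 in BAL17 brains and 7.70, 7.20, 7.72, 7.64 and 7.65 in BAL17VII brains, and the groups overlapped. Rrm2 had the largest value (0.78 ± 0.22, limma adjusted p = 0.0112), with -1.14 ± 0.07 in cells and -0.36 ± 0.19 in brains, where it was not called. Without BAL17VII brain 1 the brain value was -0.13 ± 0.14 and the difference of differences 1.02 ± 0.16. Rpa3 (0.65 ± 0.23, limma adjusted p = 0.0498), Cdc6 (0.61 ± 0.17), Rfc2 (0.53 ± 0.15), Rrm1 (0.50 ± 0.13), Lig1 (0.44 ± 0.12), Mcm4 (0.41 ± 0.13), Rfc5 (0.40 ± 0.10) and Orc6 (0.30 ± 0.10) were the others. The lowest values, none of them called, were those of Pold2 (-0.36 ± 0.20), Tk1 (-0.36 ± 0.15) and Orc2 (-0.30 ± 0.11).

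Without BAL17VII brain 1 the count was 13, against 6.17% of all genes above 0: Orc6 and Rpa3 no longer passed, and Mcm3, Mcm5, Orc1 and Cdc45 did. No polymerase or helicase activation gene was called with all arrays. In the mitosis list 9 of 19 genes were called below 0 and none above, against 7.13% of all genes below 0, and without brain 1 it was 6, against 6.24%, with the list's median at -0.70 and -0.46. The smallest adjusted p were those of Kif20a (-0.66 ± 0.15), Ttk (-1.03 ± 0.26) and Aurka (-0.68 ± 0.17). Of 16 B lineage genes 5 were below 0 and 1 above, and 5 and 0 without brain 1. Among other replication factors 6 were above 0 and 3 below (8 and 1 without brain 1), among them Tipin (0.56 ± 0.12) and Rnaseh2c (0.53 ± 0.13) above and Dbf4, the activator of the Cdc7 kinase, below (-1.25 ± 0.31). Among 26 other nucleotide synthesis genes 3 were above and 5 below (2 and 4 without brain 1), with Samhd1, a dNTP hydrolase, at -1.15 ± 0.16.

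**Figure D5:**
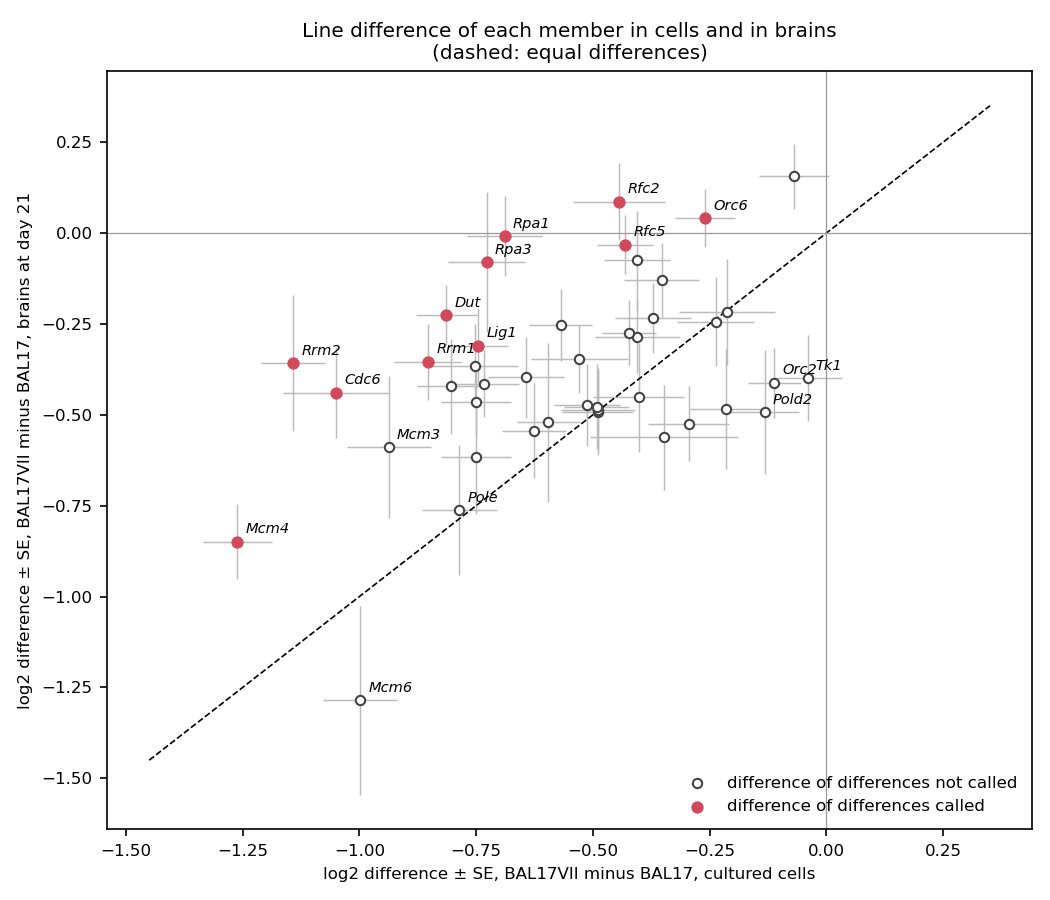
Each point is 1 of the 43 genes, with its log2 difference between BAL17VII and BAL17 in cultured cells on the horizontal axis and in brains at day 21 on the vertical axis, with limma's SE, and the dashed line marks equal differences. The 11 filled genes, whose difference of differences was called, all lie above the line, from Rrm2 at -1.14 and -0.36 to Orc6 at -0.26 and 0.04.

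Other genes of the pathway were called higher in brains in part. Of all genes, 11.0% were called higher than with PBS in BAL17 brains at day 21 and 18.8% lower. At day 28 the share called higher was 6.56%, and in BAL17VII brains 2.05%, or 2.77% without brain 1. Against BAL17 brains at day 21, 4.55% of all genes were lower in BAL17VII brains, or 2.66% without brain 1. In BAL17 brains at day 21, 22 of 36 other replication factors were higher than with PBS and none was lower, and Top2a had the largest difference (4.37 ± 0.51). The smallest adjusted p were those of Ticrr (2.44 ± 0.22) and Dbf4 (2.93 ± 0.27), which act when origins fire, and Dtl (1.42 ± 0.16). At day 28 it was 16 of 36, and in BAL17VII brains 6 of 36, or 12 without brain 1. Of 26 other nucleotide synthesis genes 10 were higher in BAL17 brains at each day and 4 in BAL17VII brains. At day 21 Shmt2, a mitochondrial source of one-carbon units, differed by 1.84 ± 0.18 in BAL17 brains. Samhd1, which the list holds although it breaks down dNTPs, differed by 1.77 ± 0.14 there. Of 15 E2F and RB family genes 5 were higher and 1 lower in BAL17 brains at day 21. Differences of 6 of the 15 were above 0, and the list median was -0.06. Among those higher were E2f8 (2.08 ± 0.23), Rbl1 (1.04 ± 0.13) and Tfdp1 (0.56 ± 0.07), while E2f1 differed by -0.06 ± 0.09. Gmnn was higher by 0.80 ± 0.14. In BAL17VII brains against BAL17 brains, 11 of the 36 other replication factors were lower and 1 higher, with Dtl (-0.87 ± 0.16), Ticrr (-1.09 ± 0.22) and Wdhd1 (-0.86 ± 0.18) having the smallest adjusted p, and 8 were lower and 0 higher by limma without brain 1. Of 26 nucleotide synthesis genes 7 were lower with and without brain 1, those with the smallest adjusted p being Samhd1 (-0.93 ± 0.14), Gart (-0.52 ± 0.08) and Ppat (-0.60 ± 0.09).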

How the data were processed

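RNA of 12 arrays of cultured cells and 20 arrays of whole brain was measured on Affymetrix mouse gene arrays. The labels give frozen sections and Trizol as the extraction of every sample. The deposited values are intensities on a linear scale (2.72 to 17825), which the authors made by RMA. The submitters' processing notes name RMA and Expression Console of Affymetrix, without versions. The log2 of the deposited intensity was taken here. Of 35556 probe sets, 21789 had 1 gene symbol in the platform's table, 1621 several and 12146 none; 21698 of the first had an identifier in the RefSeq table of GRCm38.p6. A gene was read from its single-symbol probe set with the highest mean over all arrays, which gave 19938 genes.

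Group-means models were fitted with limma 3.58.1 in R 4.3.3 (lmFit, eBayes, Benjamini-Hochberg, two-sided) to 12 cell arrays, 20 brain arrays or, for the difference of differences, all 32, with no intensity filter, since a gene dim in 1 group would pass a filter only through the group where it is high. The spread is shared within a fit, also where a group varies more than others. Arrays have no read depth, and their number limits the precision. The fit was tested on simulated data.

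The genes and lists were chosen with earlier results of these data known. Any of the 43 could be named. Values in every array (or lowest, median and highest of 6) are for the 3 largest differences of a comparison, for genes that did not pass and for Pcna; where over 8 did not pass, counts are given instead. Of other lists, the 3 genes with the smallest adjusted p and Mki67, Top2a, Cd79a, E2f1 and Gmnn could be named. Alternatives were quantile normalization, median centring, a filter at the array median, the mean of probe sets and trended robust moderation. The others were the replicate number as a block, the compared groups alone and leaving out each array of the compared groups. BAL17VII brains were therefore not left out in turn where BAL17 brains were compared with PBS brains or between the days.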

Additional observations from a re-analysis of the deposited data

Results flagged for a closer look

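Of 258 groups of values of the 43 genes, 18 held 1 array whose distance to the nearest other array was a large share of the group's range (Dixon's criterion at the 95% level); chance flags about 1 group in 20. BAL17VII brain 1 was low for Mcm6 (5.92), Gins1 (4.95), Pole (4.69) and Rfc4 (6.44). BAL17 brain 5 of day 21 was high for Pola1 (8.58), Pola2 (6.82), Pold1 (7.34) and Pole (6.88), all polymerase genes. Single high values were those of Cdc6 in BAL17 brain 2 of day 21 (6.40) and in BAL17 brain 5 of day 28 (6.40), Pold2 in BAL17 brain 2 of day 28 (8.22), Cdt1 in BAL17VII brain 2 (6.44), Mcm3 in PBS brain 3 (6.34) and Rfc3 in PBS brain 5 (7.03). Single low values were those of Rpa1 in BAL17VII brain 2 (7.20), Gins4 in BAL17VII cell array 3 (9.65), Rfc2 in BAL17VII cell array 4 (8.27) and Rfc5 in BAL17 cell array 5 (9.46).

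The line difference in brains at day 21 differed from that in cells, by the limma test of the difference itself, for Rrm2 (0.78), Rpa1 (0.68), Rpa3 (0.65), Cdc6 (0.61), Dut (0.59), Rfc2 (0.53), Rrm1 (0.50), Lig1 (0.44), Mcm4 (0.41), Rfc5 (0.40) and Orc6 (0.30).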

How the results depend on the processing

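No called difference changed sign under any alternative run. With the compared groups alone in the fit, the genes called fell from 13 to 6 in BAL17VII brains against PBS and from 25 to 16 in BAL17VII against BAL17 brains; over all genes they fell from 538 to 197 and from 2691 to 1460, and rose from 122 to 312 between the days. Quantile normalization raised the count between the days from 0 to 1, and from 122 to 231 over all genes. The cause was not tested. Leaving out 1 array of the compared groups gave 34 to 37 genes in cells, 34 to 37 in BAL17 brains at day 21 and 29 to 32 at day 28 against PBS. It gave 7 to 17 in BAL17VII brains against PBS (7 without BAL17VII brain 2 or 3, 17 without brain 1), 15 to 27 between the lines in brains (15 without BAL17VII brain 1), 0 to 0 between the days and 9 to 13 for the difference of differences. Over all genes these ranges were 229 to 1117 in BAL17VII brains against PBS, 1483 to 3767 between the lines in brains and 6 to 174 between the days. Replicate numbers were not used as pairs in the main fit. Correlations of same-numbered arrays, after group means were taken out, ran from -0.32 to 0.48. Between BAL17 brains at day 21 and PBS brains they were 0.48 for number 2, 0.38 for number 4 and -0.07 to 0.03 for the others. Whether arrays of the same number shared a batch was not tested. With the replicate block the counts were 35 in cells and 35, 14 and 36 against PBS (BAL17 day 21, BAL17VII, BAL17 day 28). They were 27 between the lines in brains, 0 between the days and 11 for the difference of differences. Values near or below the array median, as for 15 genes in PBS brains, limit how small a rise could be seen. The counts of other gene lists without BAL17VII brain 1 were an alternative chosen after seeing the data.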
